A study of Schizosaccharomyces pombe with 3 samples.

Results

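Introns that were already poorly spliced before Prp4 was inhibited are described here across the 3 RNA-seq libraries of a fission yeast strain with the *prp4-as2* allele. The strain (*Schizosaccharomyces pombe*) makes a Prp4 kinase that the ATP analogue 1NM-PP1 can block, and RNA came from untreated cells (0 min) and from cells exposed to 1NM-PP1 for 30 min and for 60 min. All libraries carry the allele and no wild-type library was analysed here, so splicing defects of the allele itself and of the introns cannot be told apart. There was 1 library per condition, which gives no spread between cultures, no p-value and no replicate check of any difference. Each library pooled a whole culture, so a large change in some cells and a small change in all cells cannot be told apart.

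For each intron the authors counted 2 kinds of read over the end of the upstream exon. Split reads leap from that exon into the next and come from spliced RNA, and unsplit reads run on into the intron and come from RNA that kept it. The Relative Splicing Efficiency Index (RSEI) is log2((split + 1)/(unsplit + 1)), so 0 means equal numbers and a negative value means more unspliced than spliced RNA. Introns were chosen by their RSEI at 0 min: unique junctions with more than 10 reads in each library, at least 3 split reads at 0 min and a RSEI below 1 at 0 min. This gave 245 introns of 232 genes, which are 5.73% of the 4275 introns that pass the read filters, out of 5368 junctions in all. The other 4030 measured introns serve for comparison. The low RSEI at 0 min and every difference from it are therefore description, whereas the RSEI at 30 and 60 min was not used. The 30 and 60 min libraries entered the choice only through the minimum of reads.

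Fission yeast genes often hold several short introns. The spliceosome recognises each of them through base-pairing of the snRNA U1 with the exon1/5’ SS region, the last exon bases and the start of the intron, and through pairing of the snRNA U2 with the branch sequence (bs). Prp4 is a kinase of the spliceosome that phosphorylates splicing factors such as Prp1 before the complex is activated. An intron that stays in the RNA usually brings a stop codon into the reading frame or shifts it.

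The sequences below show what the poorly spliced introns look like beside introns of the same genes that were well spliced at 0 min. All are given 5’ to 3’ on the coding strand from the RefSeq assembly ASM294v3, beginning with the last 3 bases of the exon. Capitals mark the first 6 bases of the intron (the 5’ SS), the bs that lies nearest the 3’ end among pentamers of the form YUNAY, and the last 3 bases (the 3’ SS). The marked bs may not be the one used, since other matches lie upstream in some introns. Examples are cuaau in intron I of *mdm31* and uuaac in intron I of *spp41*. *prp10* encodes the U2 snRNP protein SF3B1, *spp41* a transcriptional regulator, *rpb4* a subunit of RNA polymerase II, *tsn1* translin and *cds1* the replication checkpoint kinase. In *prp10*, intron II (chrI:4336556-4336621, minus strand) was poorly spliced and intron I (chrI:4336727-4336777) was well spliced. Intron I of *spp41* lies at chrII:3327047-3327093 on the plus strand, and intron I of *mdm31*, whose 9 bases all pair with U1, at chrI:1936235-1936335 on the minus strand.
prp10 intron II, poorly spliced: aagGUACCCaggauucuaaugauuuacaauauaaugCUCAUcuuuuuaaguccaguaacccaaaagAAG
prp10 intron I, well spliced: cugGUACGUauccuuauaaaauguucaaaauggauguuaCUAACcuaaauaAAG
spp41 intron I, poorly spliced: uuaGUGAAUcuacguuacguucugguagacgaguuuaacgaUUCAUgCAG
mdm31 intron I, poorly spliced: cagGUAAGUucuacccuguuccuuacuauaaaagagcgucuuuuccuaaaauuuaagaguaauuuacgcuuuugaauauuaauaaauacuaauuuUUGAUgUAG

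In *rpb4* (plus strand), intron I at chrII:1055714-1055751 was poorly spliced and intron II at chrII:1055858-1055902 well spliced. In *tsn1* (minus strand) these were intron II at chrI:4395368-4395415 and intron III at chrI:4395093-4395130. In *cds1* (minus strand), introns IV at chrIII:740536-740603 and VI at chrIII:739963-740000 were poorly spliced, and intron II at chrIII:740766-740832 was well spliced. The bs marked in intron IV of *cds1* overlaps its 3’ SS, and another match, cuuac, lies upstream of it. All of these introns lie between coding exons.
rpb4 intron I, poorly spliced: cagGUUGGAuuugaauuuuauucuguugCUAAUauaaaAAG
rpb4 intron II, well spliced: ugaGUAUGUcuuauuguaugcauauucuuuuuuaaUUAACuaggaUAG
tsn1 intron II, poorly spliced: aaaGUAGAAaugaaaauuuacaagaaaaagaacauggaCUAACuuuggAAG
tsn1 intron III, well spliced: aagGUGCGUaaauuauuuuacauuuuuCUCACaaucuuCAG
cds1 intron IV, poorly spliced: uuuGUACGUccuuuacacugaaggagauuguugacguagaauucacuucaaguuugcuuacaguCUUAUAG
cds1 intron VI, poorly spliced: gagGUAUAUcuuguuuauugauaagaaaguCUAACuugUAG
cds1 intron II, well spliced: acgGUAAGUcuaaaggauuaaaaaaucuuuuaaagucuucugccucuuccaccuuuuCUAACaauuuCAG

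The poorly spliced introns, chosen for a low RSEI at 0 min, also had a lower median RSEI than the other introns at 30 and 60 min. Most of them had a lower RSEI with the inhibitor than without it. Their median RSEI was 0.18 at 0 min, -2.58 at 30 min and -2.13 at 60 min, against 3.63, 0.77 and 1.64 in the other introns. The median share of unsplit reads was 46.7%, 87.2% and 82.5% in the poorly spliced introns and 6.16%, 36.5% and 23.4% in the others. A negative RSEI was found at 30 min in 233 of the 245 poorly spliced introns and in 1437 of the 4030 others, and at 60 min in 218 and in 889. Among the poorly spliced introns, 95 already had a negative RSEI at 0 min, and their median RSEI was -0.79, -3.12 and -2.86 at 0, 30 and 60 min.

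**Figure D1:**
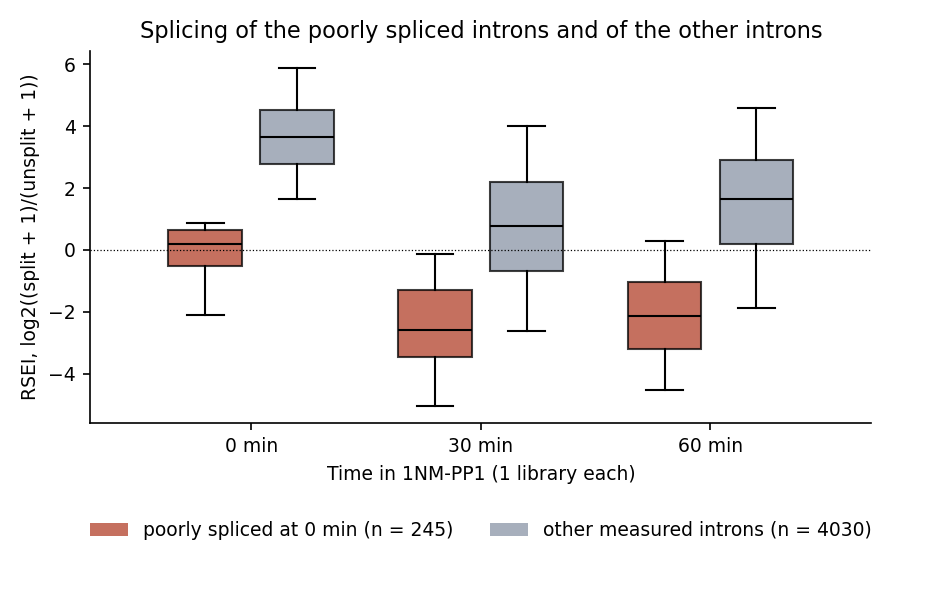
Box plots of the RSEI (vertical axis, log2) at 0, 30 and 60 min in 1NM-PP1 for the 245 poorly spliced introns and the 4030 other measured introns; boxes span the quartiles, lines mark the medians and whiskers reach the 5th and 95th percentiles over introns of 1 library. The median of the poorly spliced introns was 0.18, -2.58 and -2.13, below that of the others at each time; the level at 0 min was used to choose them.

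These introns were less deeply read than the others. Their junctions held a median of 34 reads at 0 min, 53 at 30 min and 38 at 60 min, against 88, 86 and 74 in the others, and library totals were between 743457 and 910440 junction reads. A RSEI of 1 corresponds to about 33.3% unsplit reads. The exact 95% interval of the unsplit share at 0 min (Clopper-Pearson) lay wholly above that share in 102 of the 245 poorly spliced introns and included it in the other 143, as it did in 436 of the other introns, so that for many introns the depth does not tell on which side of the limit they lie. All intervals cover counting error only, because PCR copies were not told apart by molecular identifiers. Within the range of 20 to 63 reads at 0 min, the 124 poorly spliced introns had a median RSEI of -2.57 at 30 min and -2.21 at 60 min, and the 1323 others of 0.26 and 1.09.

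Just inside the limit stood intron I of *rpl39* (RSEI 0.98), intron I of *new18* (0.96), intron I of *glo2*, intron II of SPAC31A2.10 and intron II of *pwi1* (0.94 each). Just outside were intron I of *ubp8*, intron VI of *sec8* and intron I each of *sut1*, *sec59* and *ero11*, all with a RSEI of 1.00.

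An intron was called lower or higher between 2 libraries when its RSEI differed by at least 1 and the exact 95% intervals of its unsplit share did not overlap. By this rule 134 of the 245 poorly spliced introns (54.7%) were lower at 30 min than at 0 min, beside 69% of all measured introns, and 108 (44.1%) were lower at 60 min than at 0 min, beside 50.7% of all. Within the range of 20 to 63 reads at 0 min, 57.3% of the poorly spliced introns and 59.2% of the others were lower at 30 min, and 42.7% and 37.7% at 60 min, so that the gap at 30 min nearly closed and that at 60 min turned round at like depth. None was higher at 30 min or at 60 min than at 0 min, and neither was any measured intron (0%). By the RSEI difference alone, 2 of the poorly spliced introns (0.816%) and 19 of the others (0.471%) were higher at 30 min, and 5 (2.04%) and 50 (1.24%) at 60 min. The RSEI at 30 min lay below that at 0 min in 230 of the 245 poorly spliced introns and in 3930 of the 4030 others, with a median difference of -2.38 in the poorly spliced introns and of -2.93 in the others. Since the rule used the 0 min library, these counts describe the introns and are no result about them.

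Both kinds of read contributed. After scaling each library to its total of junction reads, the median ratio of 30 min over 0 min was 2.40 for unsplit and 0.498 for split reads in the poorly spliced introns, against 4.54 and 0.677 in the others. For the sum of both kinds it was 1.44 in the poorly spliced introns and 1.09 in the others, so that more reads overall lay on these junctions at 30 min. All these ratios divide by the 0 min counts that chose the introns, so they too are description.

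**Figure D2:**
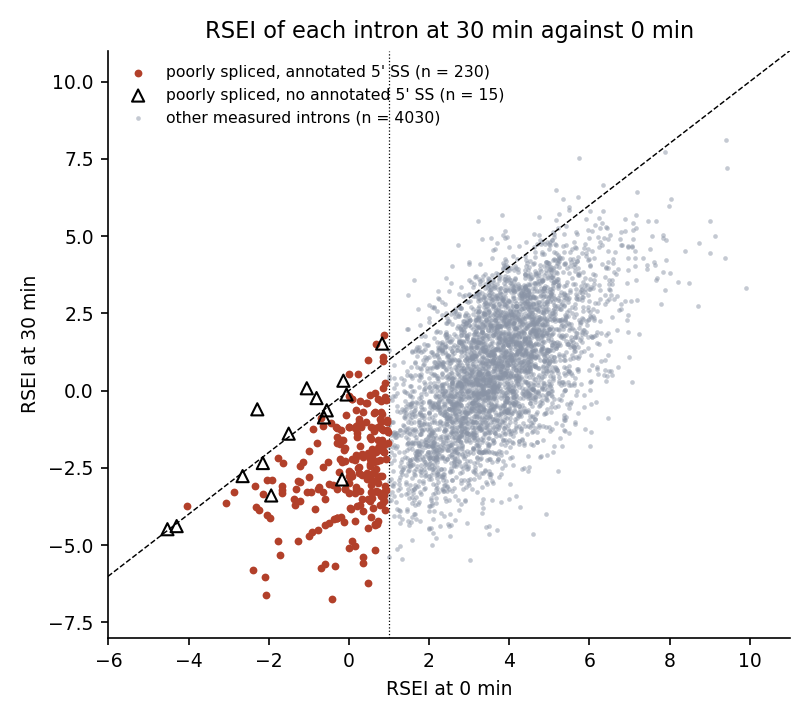
RSEI (log2) of each measured intron at 30 min (vertical) against 0 min (horizontal), with 230 poorly spliced introns at an annotated 5’ SS as filled points, 15 at no annotated 5’ SS as open triangles and the 4030 others in grey; the dashed line marks equal values and the dotted line the limit of 1. Of the 245 poorly spliced introns 230 lie below the dashed line, and most triangles lie close to it.

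Less splicing returned to the poorly spliced introns than to the others between 30 and 60 min. The RSEI was higher at 60 min than at 30 min in 170 of the 245 and in 3482 of the 4030 others. The groups had unlike medians of -2.58 and 0.77 at 30 min, and introns of like RSEI at 30 min were not compared. By the rule, 3 of the 245 (1.22%) were higher at 60 min than at 30 min, beside 13.8% of all measured introns, and 1 was lower (0.408%), beside 0.14% of all. By a RSEI difference of at least 1 alone, 24.9% of the poorly spliced introns and 37.6% of the others were higher, and the median difference was 0.39 in the poorly spliced introns and 0.79 in the others. Depth differed between the groups, and within the range of 20 to 63 reads at 0 min 1.61% of the poorly spliced introns and 4.69% of the others were higher at 60 min, or 26.6% and 40.1% by the RSEI alone. The RSEI of neither library was used to choose the introns, though both had to pass the minimum of reads.

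The 3 introns that were higher at 60 min belong to *kap114*, SPAC6F6.11c and *vcx1*. Intron V of *kap114*, a karyopherin for nuclear import, had 20 split and 19 unsplit reads at 60 min, against 13 split and 57 unsplit reads at 30 min. Intron I of SPAC6F6.11c, for a pyridoxine kinase with a related gene in the genome, had 17 split and 33 unsplit reads at 60 min, against 5 and 67 at 30 min. Intron I of *vcx1*, a calcium/proton exchanger, lies in the 5’ UTR and had 44 split and 78 unsplit reads at 60 min, against 27 and 145 at 30 min. Their unsplit shares of 48.7%, 66.0% and 63.9% at 60 min were above the median of 23.4% in the introns outside the group.

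The intron that was lower at 60 min than at 30 min was also the one with the most reads. Intron I of *rpl39*, encoding the ribosomal protein L39, lies in the 3’ UTR. It had 1092 split and 554 unsplit reads at 0 min, 396 and 1285 at 30 min, and 196 and 1357 at 60 min. Its unsplit share was 33.7% (31.4 to 36.0) at 0 min, 76.4% (74.3 to 78.5) at 30 min and 87.4% (85.6 to 89.0) at 60 min, and the intervals of the 3 times do not overlap. The RSEI was -2.79 at 60 min, against -1.70 at 30 min.

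Among the introns with many reads, the strongest response was that of intron II of *tsn1*, which encodes translin, a nucleic acid-binding protein. It had 258 split and 343 unsplit reads at 0 min, 4 and 537 at 30 min, and 3 and 417 at 60 min. Spliced RNA was thus common in untreated cells and close to undetected with the inhibitor, with unsplit shares of 57.1% (53.0 to 61.1), 99.3% (98.1 to 99.8) and 99.3% (97.9 to 99.9). Its 5’ SS, GUAGAA, lacks the G at position +5, and 4 of its 9 bases pair with U1.

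Intron I of *rpb4*, for a subunit of RNA polymerase II, had 371 split and 352 unsplit reads at 0 min, 109 and 750 at 30 min, and 90 and 662 at 60 min. The unsplit share was 48.7% (45 to 52.4), 87.3% (84.9 to 89.5) and 88.0% (85.5 to 90.3), with overlapping intervals at 60 and 30 min. Intron I of *rpb9*, another subunit of the same enzyme, had 32 split and 49 unsplit reads at 0 min, 13 and 285 at 30 min, and 17 and 263 at 60 min. Intron I of *naa20*, the catalytic subunit of the NatB N-acetyltransferase, had 174 split and 125 unsplit reads at 0 min, 65 and 471 at 30 min, and 89 and 418 at 60 min. In all 3 introns the intervals at 30 and 60 min lay above that at 0 min.

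**Figure D3:**
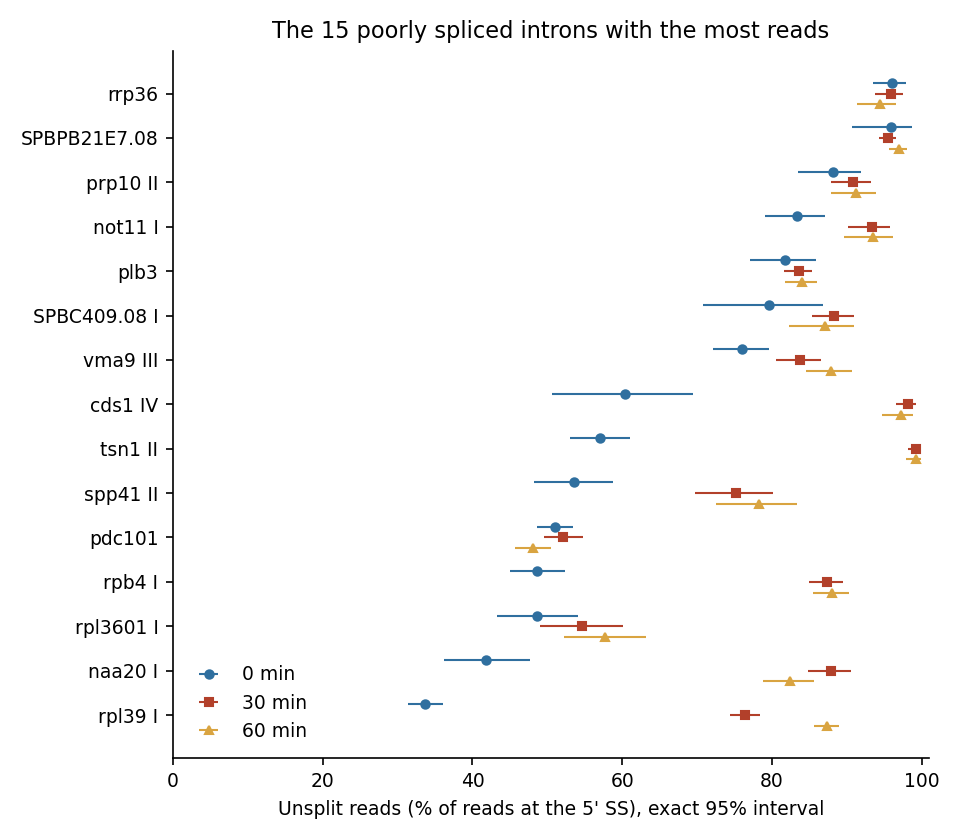
Share of unsplit reads (horizontal axis, % of reads at the 5’ SS) at 0, 30 and 60 min for the 15 poorly spliced introns with the most reads, from the highest to the lowest share at 0 min; points are single libraries and bars exact 95% intervals of counting error. The shares of *tsn1* II, *cds1* IV, *rpb4* I, *naa20* I and *rpl39* I at 30 min lie far above those at 0 min. The intervals of *prp10* II, *rpl3601* I and SPBC409.08 I overlap at 0 and 30 min. So do those of *rrp36*, SPBPB21E7.08, *plb3* and *pdc101*, which are junctions at no annotated 5’ SS.

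Some introns were scarcely spliced at any time. The lowest RSEI at an annotated 5’ SS was that of intron I of *spp41*, with 12 split and 214 unsplit reads at 0 min, 15 and 211 at 30 min, and 13 and 137 at 60 min. Its unsplit share of 94.7% (90.9 to 97.2) at 0 min, 93.4% (89.3 to 96.2) at 30 min and 91.3% (85.6 to 95.3) at 60 min did not differ beyond counting error. Its 5’ SS begins with GUGAAU, and 4 bases of the exon1/5’ SS region pair with U1. Intron II of the same gene was also poorly spliced, with 166 split and 191 unsplit reads at 0 min, 69 and 209 at 30 min, and 52 and 187 at 60 min, and its unsplit share at 30 min (75.2%, 69.7 to 80.1) lay above that at 0 min (53.5%, 48.2 to 58.8).

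Intron II of *prp10* had 29 split and 216 unsplit reads at 0 min, 46 and 454 at 30 min, and 32 and 333 at 60 min. The unsplit share was 88.2% (83.4 to 91.9), 90.8% (87.9 to 93.2) and 91.2% (87.8 to 93.9), which overlap at all times. Intron I of the same gene, with 139 split reads and no unsplit read at 0 min, 249 and 10 at 30 min, and 208 and 3 at 60 min, was among the well spliced introns. Intron II differs from intron I in a 5’ SS of GUACCC and in having its nearest bs, CUCAU, 29 nt from the 3’ end.

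Other introns with a very low RSEI at 0 min were in *not11*, *etp1*, SPCC1450.12 and *mug174*. Intron I of *not11*, named for the Not11 subunit of the CCR4-NOT deadenylase, had 59 split and 296 unsplit reads at 0 min, 22 and 311 at 30 min, and 16 and 230 at 60 min, and its unsplit share of 93.4% (90.2 to 95.8) at 30 min lay above that of 83.4% (79.1 to 87.1) at 0 min. Intron I of *etp1*, a mitochondrial monooxygenase-ferredoxin fusion protein, had 21 split and 110 unsplit reads at 0 min, 20 and 179 at 30 min, and 15 and 110 at 60 min, with overlapping intervals. Intron IV of SPCC1450.12, an uncharacterised gene, had 8 split and 74 unsplit reads at 0 min, 4 and 61 at 30 min, and 3 and 51 at 60 min. Intron I of *mug174*, for the coilin of fission yeast, lies in the 5’ UTR and had 3 split and 20 unsplit reads at 0 min, no split read among 55 at 30 min, which allows a spliced share of up to 5.45%, and none among 41 at 60 min (up to 7.32%).

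At 30 min 20 of the poorly spliced introns had no split read, with 11 to 98 reads each, and at 60 min 7 had none. The most deeply read of these at 30 min were intron III of *spn7*, for a meiotic septin (0 of 98 reads, which allows a spliced share of up to 3.06%), and intron I of *rns1*, for a putative RNA-binding protein (0 of 74 reads, up to 4.05%). Intron I of *rns1* had 1 split and 69 unsplit reads at 60 min and 52 and 37 at 0 min, and its RSEI difference of -6.71 between 30 and 0 min was the lowest of the group. It was followed by intron II of *tsn1* (-6.34), intron I of *rfc1*, for the large subunit of the clamp loader (-5.95), intron II of *tfb1*, for a TFIIH subunit (-5.82), intron I of *pot1* (-5.75) and intron I of *cyp3*, for a cyclophilin (-5.32).

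Some deeply read introns did not pass the rule at 30 min. Of the 34 with 100 or more reads at 0 min, 24 were lower at 30 min and 10 were not. Among the 10 were intron I of *spp41*, intron II of *prp10*, intron I of *etp1*, intron I of SPBC409.08, intron III of *vma9* and intron I of *rpl3601*. The others of the 10 were junctions at no annotated 5’ SS, in *rrp36*, SPBPB21E7.08, *plb3* and *pdc101*. The ribosomal protein L36 is encoded by *rpl3601* and by another gene, and only uniquely mapped reads were kept, so reads matching both may be missing. Intron I of *rpl3601* had 173 split and 164 unsplit reads at 0 min, 149 and 179 at 30 min, and 139 and 190 at 60 min. Its unsplit share was 48.7% (43.2 to 54.1), 54.6% (49.0 to 60.1) and 57.8% (52.2 to 63.1) at these times, with overlapping intervals, and it has the common 5’ SS GUAUGU and the bs CUAAC. Intron III of *vma9*, a subunit of the vacuolar ATPase, lies in the 3’ UTR and had 127 split and 402 unsplit reads at 0 min, 100 and 514 at 30 min, and 56 and 408 at 60 min. Its unsplit share of 83.7% (80.6 to 86.5) at 30 min lay above that of 76.0% (72.1 to 79.6) at 0 min, but the RSEI differed by only -0.70, and at 60 min it passed the rule with a difference of -1.19 against 0 min.

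Of the 230 poorly spliced introns at an annotated 5’ SS, 8 had a RSEI above that at 0 min in the 30 min library, and none of these differences passed the rule. Intron I of *rsd1*, for an RNA-binding protein, had 21 split and 11 unsplit reads at 0 min, 13 and 3 at 30 min, and 12 and 4 at 60 min. Intron IX of *cdc7*, a kinase of the septation initiation network, had 7 split and 4 unsplit reads at 0 min, 22 and 7 at 30 min, and 12 and 3 at 60 min. Intron I of *cdc24*, a DNA replication protein, had 6 split and 6 unsplit reads at 0 min, 12 and 8 at 30 min, and 28 and 8 at 60 min, while introns II, III, V and VI of the same gene had a negative RSEI at 30 min. Intron I of *cwf19*, a spliceosome-associated protein, had 42 split and 23 unsplit reads at 0 min, 42 and 21 at 30 min, and 39 and 13 at 60 min. In each of these 4 introns the intervals of the 3 times overlap.

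The other introns of the same genes mostly had a higher RSEI at 30 and 60 min, while at 0 min the choice of introns sets this order. In 138 genes, 147 poorly spliced introns could be set beside 305 other measured introns of the same genes. The median RSEI of the poorly spliced introns was 0.26 at 0 min, -2.66 at 30 min and -2.28 at 60 min, and that of the other introns of the same genes 3.29, 0.00 and 0.95. At 30 min the poorly spliced introns had the lower median in 123 of the 138 genes, and at 60 min in 128. In 13 genes there were 2 poorly spliced introns, namely *spp41*, *cds1*, *trt1*, *pot1*, *rdh54*, *rev7*, *ubp8*, *dsh1*, *rex2*, *pfd1*, *cox20*, *mtl16* and SPCC777.02.

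In *cds1*, introns IV and VI were poorly spliced and introns I, II, III, V and VII had a RSEI of 1.58 to 4.44 at 0 min. Intron IV had 44 split and 67 unsplit reads at 0 min, 8 and 443 at 30 min, and 8 and 288 at 60 min. Intron VI had 47 split and 46 unsplit reads at 0 min, 25 and 357 at 30 min, and 23 and 277 at 60 min. In the same RNA intron II, with a 5’ SS of GUAAGU and the bs CUAAC, had 64 split and 2 unsplit reads at 0 min, 55 and 6 at 30 min, and 65 and 2 at 60 min. Thus the RSEI at 30 min was -5.62 in intron IV and -3.78 in intron VI, but 3 in intron II.

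In *trt1*, the gene for the telomerase reverse transcriptase, intron III had 10 split and 46 unsplit reads at 0 min, 2 and 196 at 30 min, and 1 and 120 at 60 min. Intron XIII had 25 split and 33 unsplit reads at 0 min, 3 and 32 at 30 min, and 5 and 77 at 60 min. The 9 other measured introns of this gene had a RSEI of 1.65 to 4.81 at 0 min and of -2.72 to 1.22 at 30 min. All lay above both poorly spliced introns at 30 and 60 min, while the order at 0 min follows from the choice of introns. In *tsn1* introns I, III, IV and V had a RSEI of -2.38 to -0.70 at 30 min, against -6.75 in intron II.

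**Figure D4:**
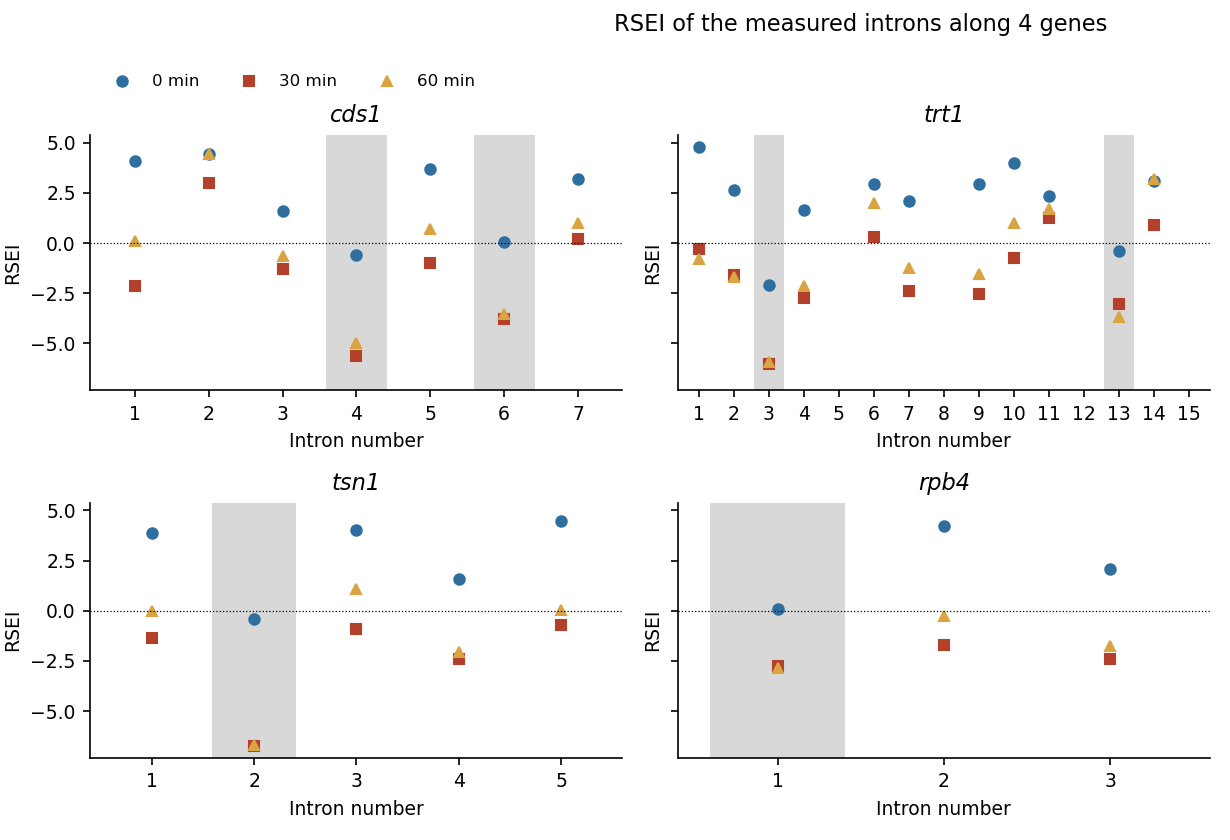
RSEI (vertical axis, log2) of each measured intron by its number in the gene (horizontal axis) at 0, 30 and 60 min in *cds1*, *trt1*, *tsn1* and *rpb4*; shaded columns mark the poorly spliced introns. At 30 min intron IV of *cds1* stood at -5.62 and its neighbour intron V at -1.02, and intron II of *tsn1* at -6.75 beside -1.34 in intron I and -0.89 in intron III.

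The exon1/5’ SS region of the poorly spliced introns paired with U1 at fewer positions on average. A base in the 9 positions from -3 to +6 was scored as pairing where it equals that of CAGGUAAGU. The 230 poorly spliced introns at an annotated 5’ SS paired at 5.87 ± 1.17 positions (mean ± SD over introns) and the 4016 others at 6.22 ± 0.94. At most 5 pairs were found in 93 (40.4%) of the poorly spliced introns and in 875 (21.8%) of the others. The shares differed most at position +5, where 75.2% of the poorly spliced introns and 89.7% of the others had a G, and at position +6, where 55.7% and 66.8% had a U. At position -1 a G was found in 53.5% and 57.6%, at position -2 an A in 41.3% and 48.6%, and at position +4 an A in 50.4% and 49.4%. At position -3 the order was the other way, with a C in 20.9% of the poorly spliced introns and 16.6% of the others. These shares describe the introns of 1 genome, and no test was run on them.

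**Figure D5:**
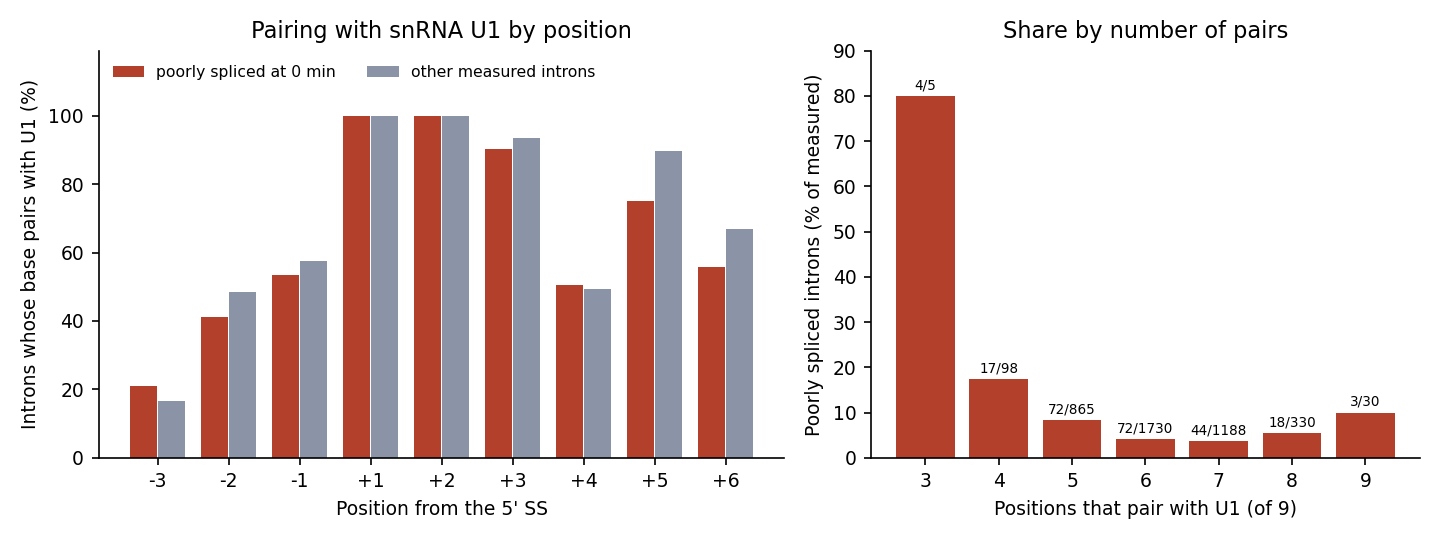
Left, share of introns (vertical axis, %) whose base pairs with snRNA U1 at each position from -3 to +6 around the 5’ SS (horizontal axis), for the poorly spliced and the other measured introns. Right, poorly spliced introns as a share of all measured introns (vertical axis, %) by the number of positions that pair with U1 (horizontal axis), with counts above the bars; the share is 4 of 5 at 3 pairs, 17 of 98 at 4 pairs, 72 of 1730 at 6 pairs and 3 of 30 at 9 pairs.

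By number of pairs, 4 of the 5 measured introns with 3 pairs were poorly spliced, and so were 17 of 98 (17.3%) with 4 pairs, 72 of 865 (8.32%) with 5 pairs and 72 of 1730 (4.16%) with 6 pairs. The share was 3.70% (44 of 1188) with 7 pairs, 5.45% (18 of 330) with 8 pairs and 10% (3 of 30) with 9 pairs, so that it did not fall further. The 4 with 3 pairs were intron I each of *lea1* (UAUGUUUAA), *vps45* (AGUGUACAG), *vrs2* (AUUGUAUUA) and SPCC132.03 (AUUGUUCGA), shown as the 3 exon and 6 intron bases. *lea1* encodes a U2 snRNP protein and its intron I had 8 split and 20 unsplit reads at 0 min, 4 and 58 at 30 min, and 4 and 54 at 60 min. Full pairing was found as well, since 3 of the 30 introns with CAGGUAAGU were in the group, intron I each of *mdm31*, *cox19* and *aap1*. These 3 had 24 split and 13 unsplit reads, 19 and 10, and 12 and 6 at 0 min.

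Among 5’ SS sequences, GUAUGU was found in 26 poorly spliced introns (11.3%) and in 861 of the others (21.4%), GUAAGU in 51 (22.2%) and 1127 (28.1%), and GUAAGG in 14 (6.09%) and 89 (2.22%). Of all measured introns with GUAAGG 13.6% were poorly spliced, against 2.93% of those with GUAUGU. Within the group, the 57 introns without G at position +5 had a median RSEI of -3.06 at 30 min and -2.54 at 60 min. The 173 with it had -2.44 and -2.06, from like levels of 0.26 and 0.24 at 0 min. The split was wider at position -1. There the 107 introns without G had -3.12 at 30 min and -2.55 at 60 min, and the 123 with it -2.21 and -1.81, from 0.17 and 0.28 at 0 min. The 93 introns with at most 5 pairs had a median RSEI of -3.18 at 30 min, the 72 with 6 pairs of -2.55 and the 65 with 7 or more pairs of -1.85. Their medians at 0 min were 0.17, 0.39 and 0.24, with a median of 40, 29.5 and 31 reads. No such split is given for the introns outside the group.

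The comparison can be narrowed to genes that hold both kinds, with introns pooled over genes and not paired within each gene. Genes with many introns thus weigh more. In the 138 genes with both kinds, at most 5 pairs were found in 47.6% of the 147 poorly spliced introns and in 26.2% of the 305 others, and a G at position +5 in 72.1% and 81.3%.

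At the other end of the intron the shares lay closer together. The bs was CUAAC in 26.5% of the poorly spliced introns and 33.5% of the others, CUAAU in 20.4% and 18.2%, and CUGAC in 7.39% and 4.23%. No bs was found in the last 40 nt in 4 poorly spliced introns (1.74%), intron I of SPBC409.08 among them, and in 32 others (0.797%). The 3’ SS was UAG in 67.0% and 69.5% and AAG in 15.2% and 11.7%. The median distance from the branch point A to the intron end was 10.5 nt in the poorly spliced introns and 10 nt in the others.

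The quartiles of length lay close together in both groups, which ranged over 31 to 629 nt in the poorly spliced introns and 32 to 837 nt in the others. The median was 58.5 nt (quartiles 46 and 91) in the poorly spliced introns and 56 nt (46 and 89) in the others. The shortest was intron II of *gpi18* (31 nt), intron XIV of *rdh54* had 35 nt, and the longest were intron I each of *aco1* (629 nt), *zip2* (528 nt) and *cox19* (434 nt). The median GC content was 30.5% in the poorly spliced introns and 28.8% in the others. Of the 206 poorly spliced introns between coding exons, 7 (3.40%) had a length divisible by 3 and no stop codon in frame, as had 117 of 3944 others (2.97%). In all the others of both groups a retained intron brings a stop codon or a shift of the reading frame.

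Part of the group lay outside the coding region. The 3’ UTR held 10 of them (4.35%) and 5 of the other introns (0.125%), so that 66.7% of the 15 measured 3’ UTR introns were poorly spliced. The 5’ UTR held 14 (6.09%) and 65 (1.62%) of the others. The 10 introns of the 3’ UTR had a median RSEI of -0.29 at 0 min, -2.34 at 30 min and -2.81 at 60 min, and the 14 of the 5’ UTR of -0.15, -3.20 and -2.44. Besides *rpl39* and *vma9*, the 3’ UTR introns included intron VII of *kes1*, for an oxysterol-binding protein, with 82 split and 140 unsplit reads at 0 min, 9 and 90 at 30 min, and 14 and 135 at 60 min.

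Intron I of *cdc2*, encoding the cyclin-dependent kinase of fission yeast, lies in the 5’ UTR and had 13 split and 10 unsplit reads at 0 min, no split read among 14 reads at 30 min (up to 21.4% spliced) and none among 16 at 60 min (up to 18.8%). Introns II to V of *cdc2* had a RSEI of 4.39 to 5.38 at 0 min, 0.44 to 1.85 at 30 min and 1.27 to 2.52 at 60 min. The paper describes the *cdc2* introns within the reading frame as only slightly affected, and an intron of the 5’ UTR is not among those.

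Many were the first intron of their gene. In genes with several introns, the poorly spliced intron was intron I in 81 of 172 cases (47.1%), against 1048 of 3181 (32.9%) among the others, and the last intron in 51 (29.7%) against 1045 (32.9%). Within the 138 genes with both kinds, 46.3% of the poorly spliced and 19.0% of the other introns were intron I. Where intron I of a gene was poorly spliced, that gene had no intron I among the others, so these shares are not independent. The chromosomes were alike, with 112 of 1939 measured introns poorly spliced on chromosome I (5.78%), 90 of 1601 on II (5.62%) and 43 of 735 on III (5.85%).

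The genes were grouped by words in their annotated product or symbol, to be read against the 5.73% of all measured introns that were poorly spliced. Genes of DNA replication, repair and chromosome segregation held 25 poorly spliced introns among 208 measured (12.0%), and genes of meiosis and sexual differentiation 10 among 83 (12.0%). The shares were 7.81% (10 of 128) for the mitochondrion, 7.17% (21 of 293) for transcription and chromatin, 5.62% (10 of 178) for protein kinases and phosphatases and 5.48% (4 of 73) for membrane transporters. They were 4.76% (6 of 126) for uncharacterised genes, 4.59% (9 of 196) for splicing and RNA processing, 4.39% (5 of 114) for cytoskeleton and cell wall, 3.94% (16 of 406) for translation and ribosome, 2.78% (6 of 216) for ubiquitin and proteasome and 2.48% (6 of 242) for membrane traffic. A gene may be in several lists or, where its product is described by other words, in none.

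In the replication and repair genes the median RSEI of the poorly spliced introns was 0.35 at 0 min, -2.63 at 30 min and -2.25 at 60 min, and the RSEI at 30 min was below that at 0 min in 23 of 25. Besides *cds1* and *trt1* they included intron I of *spp1*, the catalytic subunit of DNA primase, with 20 split and 25 unsplit reads at 0 min, 16 and 155 at 30 min, and 13 and 105 at 60 min. Intron II of *spp2*, the large subunit of the primase, had 27 split and 17 unsplit reads at 0 min, 10 and 67 at 30 min, and 7 and 46 at 60 min. Intron I of *rfc1* had 8 split and 6 unsplit reads at 0 min and no split read among 47 at 30 min (up to 6.38% spliced), and 2 split and 35 unsplit reads at 60 min. Intron I of *lig4*, a DNA ligase of end joining, had the largest positive RSEI difference between 60 and 30 min. It had 4 split and 12 unsplit reads at 60 min, against 0 and 28 at 30 min, and did not pass the rule because the intervals overlap.

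A set of genes of telomere protection, put together after the values were seen and so no evidence of a theme, held 7 poorly spliced introns among 29 measured in 8 genes, beside 5.73% of all measured introns. They were introns III and XIII of *trt1*, I and II of *pot1*, I of *stn1*, II of *poz1* and II of *pku70*, and all 7 had a negative RSEI at 30 min, as had 233 of the 245 in the whole group. Both introns of *pot1*, the protein that binds the single-stranded telomere end, had no split read at 30 min, among 41 reads in intron I and 53 in intron II (up to 7.32% and 5.66% spliced), against 35 split and 27 unsplit reads in intron I and 12 and 20 in intron II at 0 min. At 60 min each had 1 split read, with 30 and 32 unsplit reads.

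A set of genes of heterochromatin RNAi, also put together after the values were seen, held 6 poorly spliced introns among 15 measured in 7 genes, again beside 5.73% of all. They were intron I each of *ago1*, *arb1*, *arb2*, *rdp1* and *chp2* and intron II of *eri1*, for the argonaute protein, its partners in the ARC complex, the RNA-directed RNA polymerase, a HP1 family protein and the siRNA ribonuclease. Intron I of *ago1* had 3 split and 18 unsplit reads at 0 min, 3 and 57 at 30 min, and 2 and 45 at 60 min, and intron I of *arb1* had 16 and 20, 3 and 69, and 1 and 37. The median RSEI of the 6 introns was 0.01, -3.45 and -1.99 at 0, 30 and 60 min.

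In genes for the U2 snRNP, chosen in the same way, 3 of 14 measured introns in 8 genes were poorly spliced, beside the same 5.73%, intron II of *prp10* and intron I each of *uap2* and *lea1*. Intron I of *uap2* had 21 split and 89 unsplit reads at 0 min, 13 and 226 at 30 min, and 4 and 163 at 60 min, and its unsplit share was 80.9% (72.3 to 87.8), 94.6% (90.9 to 97.1) and 97.6% (94 to 99.3). Among the other splicing genes, intron IV of *lsm3*, for a protein of the U6 snRNP, had 38 split and 34 unsplit reads at 0 min, 25 and 123 at 30 min, and 32 and 66 at 60 min.

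In the remaining lists, intron III of *qcr10* of the respiratory chain had 48 split and 25 unsplit reads at 0 min, 20 and 195 at 30 min, and 24 and 173 at 60 min. Intron I of *mmt1*, a mitochondrial iron transporter, lies in the 5’ UTR and had 27 split and 31 unsplit reads at 0 min, 11 and 203 at 30 min, and 10 and 129 at 60 min. Intron III of *ubc1*, a ubiquitin-conjugating enzyme, had 60 split and 49 unsplit reads at 0 min, 20 and 72 at 30 min, and 15 and 81 at 60 min. Intron I of *vps45*, a sorting protein, had 27 split and 18 unsplit reads at 0 min, 5 and 49 at 30 min, and 2 and 36 at 60 min. Intron III of *hri2*, an eIF2 alpha kinase, had 70 split and 47 unsplit reads at 0 min, 38 and 142 at 30 min, and 55 and 154 at 60 min, and in all of these the RSEI was negative at 30 and 60 min.

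Of the 245 junctions, 15 had no annotated 5’ SS in ASM294v3, against 14 of the 4030 others, and 8 of the 15 were not followed by GU, whereas all 230 at an annotated 5’ SS were. No sequence is given for them. They lay in *rrp36*, *cca1*, *ppt1*, *plb3*, *snu23*, *trl1*, *pis1*, *pof4*, *mrps9*, *cwf22*, *pdc101*, *rmr1*, SPBP4H10.12, the pseudogene SPBPB21E7.08 and the tRNA gene SPBTRNAMET.05. At 5 of them the annotation has an exon break within 1 base of the counted position. This break is 18 bases long in SPBPB21E7.08, 7 in the tRNA gene and 2 in *rmr1*. In *cwf22* and *pdc101* its length is -1, so that no base lies between the annotated exons and no annotated intron is there.

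The ratio at most of these 15 junctions differed little between the times, with a median RSEI of -1.05 at 0 min, -0.87 at 30 min and -0.81 at 60 min, and none of them was lower at 30 min by the rule, against 134 of the 230 at an annotated 5’ SS. The junction in *pdc101*, for a pyruvate decarboxylase, had 799 split and 832 unsplit reads at 0 min, 678 and 739 at 30 min, and 849 and 786 at 60 min. The junction in *plb3*, for a lysophospholipase, had 57 split and 256 unsplit reads at 0 min, 258 and 1313 at 30 min, and 189 and 989 at 60 min, and its RSEI was -2.15, -2.34 and -2.38, so that its reads increased with little change in the ratio. The junction in SPBTRNAMET.05, a methionine tRNA gene, had 14 split and 21 unsplit reads at 0 min, 17 and 27 at 30 min, and 17 and 19 at 60 min. Introns of tRNA are removed by an endonuclease and a ligase, not by the spliceosome. The highest RSEI differences between 30 and 0 min of the whole group, 1.68 in *ppt1* and 1.13 in *pis1*, were also at these junctions, with intervals that overlap. The RSEI was much lower at 30 min only in SPBP4H10.12 (-2.87 at 30 min, -0.17 at 0 min) and *snu23* (-3.39 at 30 min, -1.94 at 0 min). Without the 15 junctions the group held 230 introns with a median RSEI of 0.25 at 0 min, -2.64 at 30 min and -2.16 at 60 min.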

How the data were processed

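The data are 1 deposited table of 5374 lines with counts of split and unsplit reads per junction in 3 libraries. The counts were made by the authors from directional mRNA libraries, with adapters removed, reads aligned with TopHat to the Ensembl annotation ASM294 and uniquely mapped reads kept. SAMtools is also named in the processing notes. The deposited RSEI, a log2 ratio computed by the authors, equals the formula used here, so values were recomputed from the counts. Dropping 6 repeated lines left 5368 junctions, 6 of them mitochondrial and none of these measured. Introns came from ASM294v3, a later annotation, matched by position (5187 junctions). Symbols are those of the table or, where it gives none, of RefSeq.

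The members, gene lists and rules were chosen with earlier results of these data known. Named introns are the lowest, the most deeply read, those with the largest differences, pairing or length, those nearest the limit, pairs in 1 gene, genes of the paper and the 3 most read of each list. Introns singled out otherwise, and the telomere, RNAi and U2 sets, were chosen after their values were seen. An intron that the rule on length names is not reported here. Alternatives changed the read filter, split reads, limit, pseudocount, call rule, introns considered and bs search. Python 3.11.15 was used with numpy 2.4.6, pandas, scipy and matplotlib.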

Additional observations from a re-analysis of the deposited data

How the results depend on the processing

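Recomputing 22 results under 9 alternatives gave 152 values, of which 0 were reversed and 25 lay outside the range set for the main result. Each value belongs to 1 group, so this count does not cover the order of the groups, which turned in some cases. G at position -1 was found in 58% of the poorly spliced introns and 57.9% of the others with more than 30 reads in each library. The median length was then 54 nt and 58 nt. For a limit of RSEI below 0, CUAAC or CUAAU was found in 53.1% and 51.4%. Some ranges are too wide to tell anything. For the mean number of pairs with U1 the range was 1 SD over introns on each side, 4.70 to 7.05 in the poorly spliced introns. It holds the mean of 6.22 in the others, so values inside it are no sign of stability. With more than 30 reads in each library, 109 introns (3.53% of those measured) were below the limit, with a median RSEI of -2.36 at 60 min, and 72.5% were lower at 30 min and 65.1% at 60 min than at 0 min. With at least 10 split reads at 0 min, the group was 180 introns (4.28%), and these shares were 68.3% and 57.2%. A limit of RSEI below 0 left 95 introns (2.22%) with a median RSEI of -3.12 at 30 min and -2.86 at 60 min. Of these 34.7% and 30.5% were lower at 30 and 60 min than at 0 min, and 0% were higher or lower at 60 min than at 30 min. With a RSEI difference of 1 alone, 80.4% were lower at 30 min and 72.7% at 60 min than at 0 min, 2.04% were higher at 60 min than at 0 min, and 24.9% were higher and 5.31% lower at 60 min than at 30 min. In the others 88.2% and 77.1% were lower at 30 and 60 min than at 0 min by this rule, 1.24% were higher at 60 min than at 0 min, and 37.6% were higher and 1.79% lower at 60 min than at 30 min. Wider intervals at low depth account by construction for the gap between both rules. A search that gave common forms of the bs priority put the share with CUAAC or CUAAU at 57.8% in the poorly spliced introns and 65.5% in the others. Leaving out 5’ SS shared by several annotated introns removed 0 junctions. Adding 0.5 instead of 1 to the counts left the number of introns at 245 and the shares of calls as they were.

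With 1 library per condition, no difference has a replicate check, and intervals cover counting error only. Of the 245 introns, 61 had fewer than 20 reads at 0 min. The annotation used here is later than that of the counts. Since only uniquely mapped reads were kept, genes with a related gene in the genome (*rpl3601*, SPAC6F6.11c) may lack reads that match both. How alike these genes are was not examined. The product-word lists are crude. No pairing of replicate cultures between conditions was possible because each condition has 1 library.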
